A study of Mus musculus with 12 samples.

Results

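Trem2, Tyrobp, Spp1, Gpnmb, Apoe, Lpl, Fabp5, Cd9 and Lgals3 are 9 genes grouped here as lipid-associated macrophage genes. They were described in mouse alveolar macrophages after ozone. Whether these genes mark lipid loading in these cells was not tested. They were selected by symbol from the 55291 gene symbols of the deposited table, and the set was chosen with the ozone differences of these data already known, so those differences are given as a description without a test. For all 9, all 12 mice lay above any lowest value shared by mice of a sort batch, and all 9 were among the 19633 genes kept for testing. A mouse alone at the lowest value is not seen this way, and read counts are unknown.

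TREM2 is a surface receptor of macrophages and microglia that binds lipids, lipoproteins and the debris of dying cells. It has no signalling tail of its own and signals through TYROBP (DAP12), an adaptor whose phosphorylated motif recruits the kinase SYK. Macrophages that take up much lipid, in fat tissue, atherosclerotic plaques and injured lung or liver, often carry TREM2 together with a set of lipid and lysosome genes. Osteopontin, the product of Spp1, is a secreted matrix protein that binds integrins and CD44 and is a common marker of macrophages in lung injury and fibrosis.

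The cells were alveolar macrophages, which live in the airspaces and clear inhaled particles and surfactant, flow-sorted from lungs of female C57BL/6NJ mice aged 8 to 11 weeks. Mice of the first group breathed filtered air and mice of the second 0.8 ppm ozone, in sessions of 4 h on each of 4 days in a row, and lungs were taken 3 days afterwards. Each group held 6 mice, numbered 1 to 6 in the labels, and the cells were sorted in 2 batches with 3 mice of each group in each. Stranded libraries of polyadenylated RNA were sequenced as paired-end reads, and 1 library was deposited per mouse.

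The unit is log2 expression after a variance-stabilizing transformation and batch correction by the authors, and every gene has a mean of 0 over the filtered-air mice. A value is therefore a distance from the filtered-air mean, the abundance of a gene is not in the table, and levels of different genes cannot be ranked against each other. The total number of reads per library is unknown, and this scale compresses the differences of genes with few reads. In sorted bulk samples, fewer cells of a type and less RNA per cell cannot be told apart. P-values measure the spread between these 12 mice.

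All 15 alveolar macrophage markers examined, among them Siglecf, Marco and Pparg, lay above any shared lowest value in all 12 mice. Their mean over the list ran from -0.070 to 0.12 after filtered air and from -0.10 to 0.16 after ozone. Of these 15, 2 were called higher after ozone by limma, Car4 (0.32) and Chil3 (0.25), and 2 lower, Krt79 (-0.35) and Ear1 (-0.28). Over all 19633 genes 4.25% were called. The neutrophil genes Ly6g, Camp and Ngp and 6 of 7 eosinophil and mast cell markers were constant or had too few mice above the shared lowest value to be kept. The other 6 of 9 neutrophil markers lay above any shared lowest value in all 12 mice. Their list mean ran from -0.19 to 0.27 after filtered air and from -0.023 to 0.16 after ozone. Of these markers 1, Cxcr2, was called higher (0.79, SE 0.0909, adjusted p = 0.000451 in limma). Nearly all markers of the other lung cell types examined passed the same filter. Of the airway epithelial markers 1 of 8, Epcam, was called lower (-0.55, adjusted p = 0.0062 in limma), and the 8 B and plasma cell markers had a median difference of -0.23 with 0 called. The mean of the 10 monocyte markers ran from -0.20 to 0.32 after filtered air and from -0.11 to 0.083 after ozone, and 0 of them were called by limma after adjustment. RNA integrity numbers ran from 8.9 to 9.7 after filtered air and from 9.2 to 9.7 after ozone.

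The proximal promoters of Trem2 and Spp1 are shown because these members had the largest ozone differences. Each is the 250 bases before a RefSeq start site, 5′ to 3′ on the strand of the gene, in GRCm38.p6. Capitals mark matches on either strand to the core of the motif of PU.1, the transcription factor of the macrophage lineage (GAGGAA), and to the motif of AP-1, a factor that responds to stress and growth signals (TGANTCA). Trem2 lies on the plus strand, and its window is chr17:48346151-48346400.
Trem2: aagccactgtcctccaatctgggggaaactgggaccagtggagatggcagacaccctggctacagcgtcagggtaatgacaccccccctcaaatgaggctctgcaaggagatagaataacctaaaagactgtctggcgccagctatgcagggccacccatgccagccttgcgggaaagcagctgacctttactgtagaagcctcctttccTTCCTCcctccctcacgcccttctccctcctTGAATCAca
Spp1 lies on the plus strand, and its window is chr5:104434861-104435110.
Spp1: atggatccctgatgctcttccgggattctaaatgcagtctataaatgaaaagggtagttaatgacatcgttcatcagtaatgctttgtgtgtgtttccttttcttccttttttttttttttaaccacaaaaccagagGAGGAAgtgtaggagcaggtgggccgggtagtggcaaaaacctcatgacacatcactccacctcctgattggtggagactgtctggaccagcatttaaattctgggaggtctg

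In the Trem2 window the PU.1 core lies on the opposite strand, 40 to 35 bases before the start site, and the AP-1 match lies 9 to 3 bases before it. In the Spp1 window the PU.1 core lies 113 to 108 bases before the start site. The RefSeq table gives Spp1 2 start sites, and the window of the other one, not printed, holds 0 matches to either motif. The core was found in 23.3% of all 32851 RefSeq promoter windows of this length and the AP-1 motif in 6.75%. The E-box read by MITF and TFEB, which drive lysosomal genes (CACGTG, its own reverse complement), occurs in 6.02% of the windows and in 0 windows of the members found. Of the 9 members, 6 were in the RefSeq promoter table. Tyrobp, Lpl and Fabp5 were not. A match describes letters in a window and does not show binding.

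Trem2, the receptor, was higher in all 6 ozone mice than in any filtered-air mouse. The gene lies on chr17:48346401-48354147 in the GENCODE M21 annotation of GRCm38. Its values after filtered air had a lowest of -0.16, a median of 0.0095 and a highest of 0.18, and after ozone a lowest of 0.44, a median of 0.56 and a highest of 0.87. The ozone group thus started above the top of the filtered-air range, and the highest value belonged to ozone mouse 4. The means differed by 0.60 on the log2 scale (SE 0.0751, limma with batch as a covariate), with SDs of 0.138 after filtered air and 0.149 after ozone (n = 6 each). Ordered by difference, Trem2 stood at place 13 from the top of the 19633 genes. Its difference was 0.63 in the first sort batch and 0.56 in the second.

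Tyrobp, the adaptor that Trem2 needs to signal, differed between the groups by less than its spread. It lies on chr7:30413760-30417585. After filtered air its lowest value was -0.13, its median 0.048 and its highest 0.088, and after ozone these were -0.15, 0.028 and 0.16. The groups overlapped across nearly their whole range. The difference was 0.012 (SE 0.0582), and it ran from -0.022 to 0.049 when 1 mouse was left out. It was below 0 without ozone mouse 1 (-0.022), filtered-air mouse 5 (-0.017) or filtered-air mouse 6 (-0.017).

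Spp1, which encodes osteopontin, had the largest difference of the members. It lies on chr5:104435118-104441050. Its values ran from -0.30 over a median of -0.0030 to 0.25 after filtered air, and from 0.54 over a median of 0.71 to 0.82 after ozone. All 6 ozone mice lay above all 6 filtered-air mice, and the ozone mice lay closer together. The difference was 0.71 (SE 0.0810), the SD was 0.195 after filtered air and 0.105 after ozone, and Spp1 stood at place 5 from the top of the 19633 genes. It was 0.78 in the first batch and 0.65 in the second.

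Apoe, the apolipoprotein that macrophages secrete with cholesterol and a ligand of TREM2, was lower after ozone in the mean, with unequal differences in the sort batches. It lies on the minus strand of chr7:19696109-19699188. After filtered air its lowest value was -0.59, its median 0.0055 and its highest 0.50, and after ozone these were -0.83, -0.64 and 0.0086. The groups overlapped: 3 of the 6 ozone mice lay below every filtered-air mouse, and ozone mice 4, 5 and 6, at -0.11, 0.0086 and -0.53, lay within the filtered-air range. The difference was -0.50 (SE 0.179) with SDs of 0.372 and 0.360, the widest spread of the members in both groups. In the second batch the difference was -0.91 and the groups did not overlap, with 3 filtered-air mice from -0.11 to 0.50 and 3 ozone mice from -0.83 to -0.53. In the first batch it was -0.084, with filtered-air mice from -0.59 to 0.12 and ozone mice from -0.76 to 0.0086.

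The ozone effect was tested for a difference between the batches as an interaction term in limma. For Apoe the interaction was -0.83 (SE 0.296, limma, unadjusted p = 0.0153), and its adjusted p was 1.00. Across the 19633 genes 0 were called by limma at an adjusted p under 0.05, a share of 0.0%, while 510 had an unadjusted p under 0.05 and the smallest adjusted p was 0.320. Apoe was the only member of 9 with an unadjusted p under 0.05. All 9 members had the same sign of difference in both batches.

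**Figure D1:**
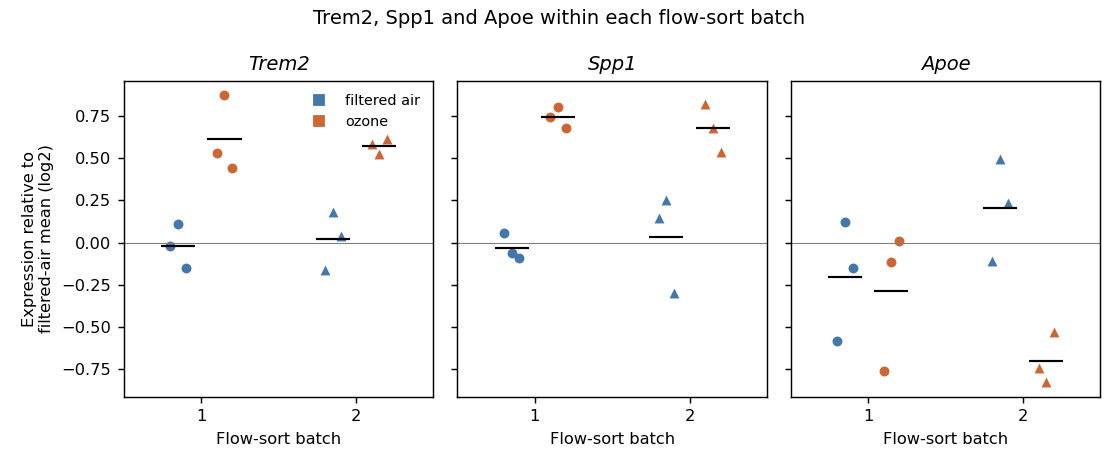
Expression of Trem2, Spp1 and Apoe in each mouse, split by flow-sort batch, on the log2 scale relative to the filtered-air mean; points are mice and lines are group means. Trem2 and Spp1 are higher after ozone in both batches, by 0.63 and 0.56 for Trem2, while the Apoe groups overlap in the first batch (-0.084) and not in the second (-0.91).

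Of the lipid-handling members, Fabp5 was higher in most ozone mice and Lpl lower in some. Fabp5, a fatty acid binding protein of the cytoplasm on chr3:10012548-10016607, ran from -0.070 over a median of -0.012 to 0.081 after filtered air and from 0.025 over 0.12 to 0.30 after ozone. The highest 5 of the 6 ozone mice lay above all filtered-air mice, and the difference was 0.14 (SE 0.0464). It was 0.15 in the first batch and 0.14 in the second. Lpl, lipoprotein lipase, which frees fatty acids from lipoproteins, lies on chr8:68880491-68907448. Its values ran from -0.18 over 0.026 to 0.079 after filtered air and from -0.25 over -0.12 to 0.025 after ozone. Of the ozone mice, 3 of 6 lay below all filtered-air mice and the groups overlapped. The difference was -0.11 (SE 0.0607), -0.035 in the first batch and -0.18 in the second.

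Among the membrane proteins and lectins, Lgals3 was lower in most ozone mice, while Gpnmb and Cd9 overlapped widely. It encodes galectin-3, a secreted lectin that binds damaged lysosomes and glycoproteins, and lies on chr14:47367751-47386160. Its values ran from -0.062 over 0.0021 to 0.061 after filtered air and from -0.20 over -0.14 to -0.013 after ozone. In 5 of 6 ozone mice it was below all filtered-air mice, by a difference of -0.12 (SE 0.0412) that was -0.11 and -0.14 in the batches. Gpnmb, a lysosomal glycoprotein on chr6:49036546-49070929, ran from -0.078 over 0.0079 to 0.064 after filtered air and from -0.058 over 0.031 to 0.23 after ozone. Its difference was 0.048 (SE 0.0477) and was 0.0072 without ozone mouse 1, the highest of its group. The tetraspanin Cd9 on the minus strand of chr6:125460266-125494791 ran from -0.11 over 0.020 to 0.098 after filtered air and from -0.22 over -0.050 to 0.11 after ozone, with a difference of -0.055 (SE 0.0542) that was -0.091 without ozone mouse 1 and -0.017 without ozone mouse 6. In both genes the ozone mice spanned the filtered-air median.

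**Figure D2:**
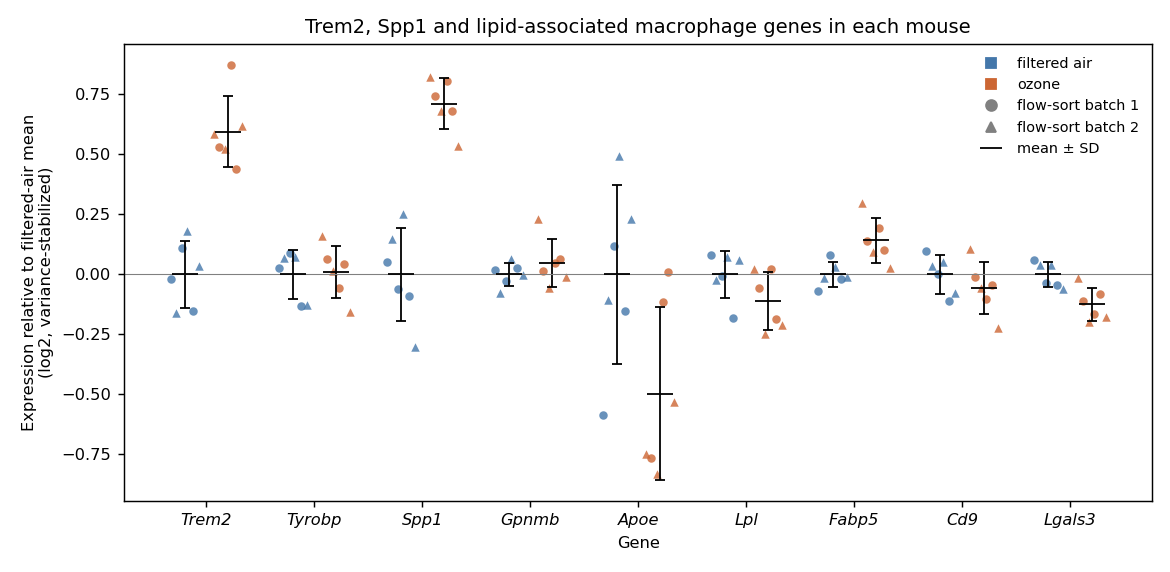
Expression of the 9 members in each mouse on the log2 scale relative to the filtered-air mean; points are mice (6 per group; circles and triangles are the sort batches) and black bars are the mean and SD. The groups are apart for Trem2 and Spp1 (ozone minima of 0.44 and 0.54) and overlap for the other members.

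Of the 9 members, 5 were higher and 4 lower after ozone, and their median difference was 0.012 against -0.0033 over all genes kept. The whole-table test called 2 of 9, Trem2 and Spp1, where 4.25% of all 19633 genes were called, 2.41% higher and 1.84% lower. The same 2 had groups that did not overlap, where 3.53% of all genes had none. The members had been picked from this contrast, so nothing is read from these counts. The spread between mice was larger after ozone than after filtered air in 7 of 9 members (2.04-fold for Gpnmb, 1.83-fold for Fabp5 and 0.537-fold for Spp1), and in 10086 of all 19633 genes.

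The members were then compared with each other across mice, which is a measure the choice of members did not use. Correlations were computed over the 6 mice of each group separately for all 36 pairs, 72 relations in all, with exact two-sided permutation tests. By these tests 0 of 72 relations had an adjusted p under 0.05, with 8 of 72 under 0.05 before adjustment by Pearson's r and 6 by Spearman's rho. The smallest exact permutation p was 0.00139, the smallest that 720 orders allow, with an adjusted p of 0.10. The median r over the pairs was 0.205 after filtered air, with 28 of 36 pairs positive, and 0.557 after ozone, with 30 positive. Over all pairs of the genes kept it was 0 in both groups.

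The filtered-air median rests on a single animal. Without filtered-air mouse 4 it was -0.0722, and without any one of the other mice it lay between 0.158 and 0.455. Filtered-air mouse 4 was the highest of its group for Trem2, Spp1, Gpnmb and Apoe, had the lowest RNA integrity number, 8.9, was the lowest of its group in the alveolar macrophage list (-0.070) and was highest in 7 of the 11 lists of markers of other cell types, the monocyte list at 0.32 and the B and plasma cell list at 0.34 among them. The part of these in the members' values was not tested. After ozone the median was 0.41 when ozone mouse 1 was left out and 0.732 when mouse 4 was. Ozone mouse 1 was the highest of its group in 6 members and in the alveolar macrophage list (0.16), and ozone mouse 6 was the lowest in 4 members and in that list (-0.10). Ozone mouse 6 was also the highest of its group in 4 of the 11 other lists, those of dendritic cells, neutrophils, alveolar type 2 cells and endothelial cells. Ozone mouse 5 was highest in 4 of these 11 lists as well, while it stood at place 2 of 6 in the alveolar macrophage list, and ozone mouse 3 was lowest in 4 members and not in that list. The part of these was not tested either.

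Tyrobp and Cd9 had the highest Pearson r of the pairs after ozone. Their r was 0.99 (exact permutation p = 0.00139, adjusted p = 0.10) and rho 1.00 (exact permutation p = 0.00278, adjusted p = 0.10). It was 0.98 for r without the 2 mice farthest from the group median of the gene named first in the pair. After filtered air r was 0.83 (exact permutation p = 0.0625, adjusted p = 0.375) and rho 0.49 (exact permutation p = 0.356). Without the 2 farthest mice r was -0.95, while without any 1 mouse it stayed between 0.70 and 0.94. The relation after filtered air thus depends on which mice are left out. Cd9 and Lgals3 had an r of 0.91 after filtered air (exact permutation p = 0.00972, adjusted p = 0.25) and a rho of 0.94 (exact permutation p = 0.0167), and 0.89 without the 2 farthest mice. After ozone their r was 0.80 (exact permutation p = 0.0556, adjusted p = 0.364) and 0.54 without those 2. Spp1 and Cd9 had an r of 0.73 after filtered air (exact permutation p = 0.0986, adjusted p = 0.405) and 0.79 after ozone (exact permutation p = 0.0819, adjusted p = 0.405), and the latter turned to -0.49 without the 2 farthest mice. Spp1 and Fabp5, not among the 3 highest by mean r, had a rho of 1.00 after ozone (exact permutation p = 0.00278, adjusted p = 0.10). Their r was 0.92 there (exact permutation p = 0.0139, adjusted p = 0.25) and 0.997 without the 2 farthest mice, but 0.052 after filtered air (exact permutation p = 0.936).

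For Trem2 with Spp1 in both groups, and with Tyrobp after filtered air, r moved widely when 1 mouse was left out. For Trem2 with Tyrobp after ozone it stayed below 0. Trem2 and Spp1 had an r of 0.13 after filtered air (exact permutation p = 0.792) and 0.33 after ozone (exact permutation p = 0.493). Without 1 mouse it ran from -0.47 (without filtered-air mouse 4) to 0.44 (without mouse 2) after filtered air, and from -0.19 (without ozone mouse 4) to 0.68 (without mouse 6) after ozone. Trem2 and its adaptor Tyrobp had an r of 0.38 (exact permutation p = 0.446) and -0.40 (exact permutation p = 0.435), with ranges of 0.071 to 0.73 and of -0.53 to -0.31 without 1 mouse. The lowest pairs by mean r were Apoe and Cd9 (-0.26 and -0.29), Apoe and Lgals3 (-0.33 and 0.014) and Trem2 and Lgals3 (0.017 and -0.30). None of these r values had an exact permutation p under 0.05 before adjustment.

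**Figure D3:**
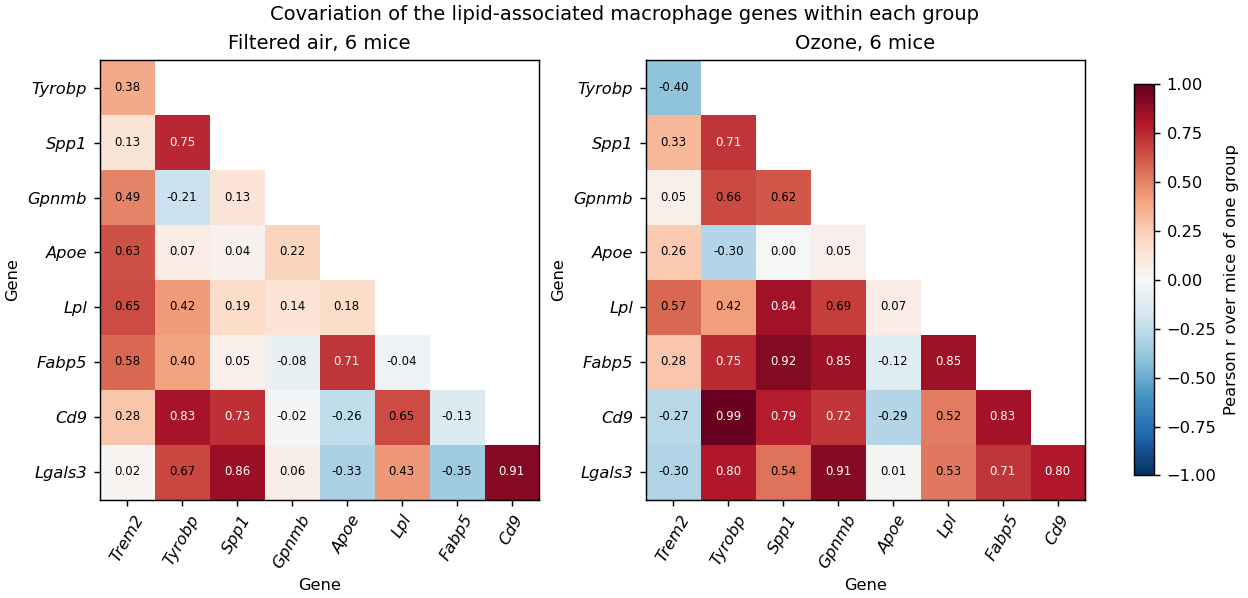
Pearson correlations of the 36 pairs of members over the 6 filtered-air and over the 6 ozone mice. The medians are 0.205 and 0.557, and Tyrobp with Cd9 reaches 0.99 after ozone.

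Over all 12 mice, as deviations from the mean of each group and batch, the genes most like Trem2 were Mef2c (r = 0.94), which encodes a transcription factor, Lrrn3 (0.93), Rragd, which encodes a Rag GTPase that signals nutrients to the lysosome (0.93), Ace (0.92) and Uggt2 (0.92). None of the 5 was called in the ozone comparison. The genes most like Spp1 were Pnp, Agfg1, Gm3375, Gna13 and Prps2, all at an r between 0.93 and 0.94, and again none of the 5 was called. These are the highest of 19632 values over 12 points that share the same libraries, so no p is given. Of the members, Lpl was nearest to Trem2 (r = 0.60, place 945) and Tyrobp nearest to Spp1 (r = 0.71, place 732), while Tyrobp was unlike Trem2 (r = -0.043).

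The pathways around the members were described from 9 lists with 129 genes, of which 126 were tested in the fit across all genes. Of the 126, 9 were called higher and 11 lower by limma at an adjusted p under 0.05, which is 15.9% of them, against 4.25% of all genes. The lists had been put together with earlier results of these data known, so this share is not independent evidence.

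Genes of TREM2 signalling and shedding had a median difference of 0.0059, with Syk, the kinase that binds Tyrobp, at 0.032 and Adam10 and Adam17, proteases that shed the receptor, at 0.14 and 0.12. Of 17 tested genes, 0 were called higher and 1 lower, Lat2, an adaptor of immune receptor signalling. Its mean was -0.21 after ozone (SD 0.0947, n = 6) against 0 after filtered air (SD 0.0679), with an SE of 0.0490 and an adjusted p of 0.0279 in limma. The call was lost in 7 of 12 fits that left out 1 mouse, with adjusted p-values of 0.0592 to 0.0689 there. The list of other TREM family members and Tyrobp-coupled receptors, with Trem1 and the Sirpb1 genes among the 14 tested, had 0 called in limma. Sirpb1c was at 0.21 (adjusted p = 0.0708) and was called without filtered-air mouse 4 (0.25, adjusted p = 0.0240) and without ozone mouse 6 (0.24, adjusted p = 0.0442). With the RNA integrity number as a covariate both Sirpb1c (adjusted p = 0.0328) and Pilrb1 (adjusted p = 0.0339) were called. Without filtered-air mouse 4 Pilrb1 was called as well (0.18, adjusted p = 0.0339), and without filtered-air mouse 6 Trem1 was (-0.21, adjusted p = 0.0257). Sirpb1c and Pilrb1 have near-identical copies, and how shared reads were counted is not given in the sources used here.

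Among the 10 receptors of osteopontin, 1 integrin chain was called higher and 1 lower. Itgb5, the beta chain of the vitronectin receptor family, rose by 0.35 (SE 0.0340, adjusted p = 0.000112), with all ozone mice between 0.32 and 0.39 against a filtered-air top of 0.045. Itga4, the alpha-4 chain that pairs with beta-1 and beta-7, fell by 0.33 (SE 0.0637, adjusted p = 0.00940), and the groups did not overlap. Cd44, Itgav and Itgb1 were at -0.025, 0.010 and -0.023 and were not called.

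Of 28 further genes of lipid-associated and disease-associated macrophages, 4 were called higher and 1 lower, 22 of 28 had a positive difference and their median was 0.11, against -0.0033 over all genes kept. Cd63, a tetraspanin of late endosomes and lysosomes, rose by 0.59 (SE 0.127, adjusted p = 0.0157), although the highest filtered-air mouse, at 0.58, lay above the lowest ozone mouse. The lysosomal protease cathepsin D, Ctsd, rose by 0.42 (SE 0.0405, adjusted p = 0.000112) without overlap, between 0.36 and 0.46 in the ozone mice and at most 0.13 after filtered air. Pld3, a lysosomal nuclease, rose by 0.21 (adjusted p = 0.00422) and Ctsb, cathepsin B, by 0.18 (adjusted p = 0.0345). Emp1 fell by 0.23 (adjusted p = 0.0351). The calls of Ctsb and Emp1 were lost in 10 and 7 of the 12 fits without a mouse, with adjusted p-values of 0.0569 to 0.0807 and of 0.0572 to 0.0845. The count of 5 in this list was 3 without filtered-air mouse 1 or 2 or ozone mouse 2, 3 or 5. Mmp12, a macrophage elastase, was at 0.33 (adjusted p = 0.327) and was not called in this fit. With a term for the replicate number in place of batch, Mmp12 was called (adjusted p = 0.00775 in limma) and the count in this list was 10. Same-numbered mice are different animals.

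Genes of the LXR pathway, which senses sterols and drives Apoe, Abca1 and cholesterol efflux, had a negative difference in 12 of 15 tested, the median was -0.061, and 3 were called lower and 0 higher. Apoc1, the apolipoprotein beside Apoe on chromosome 7, fell by 0.46 (SE 0.0879, adjusted p = 0.00936) and the groups did not overlap, while Apoc2 in the same cluster was at -0.029. Pltp, which transfers phospholipid, fell by 0.30 (SE 0.0690, adjusted p = 0.0243), a call lost without filtered-air mouse 5 or ozone mouse 2 or 3 (adjusted p 0.0523 to 0.0597). Abca1 was at -0.29 (adjusted p = 0.229) and Nr1h3, which encodes LXR-alpha, at 0.15 (adjusted p = 0.0797), and neither was called. Without filtered-air mouse 4, Nr1h3 was called higher (0.18, adjusted p = 0.0269).

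Partners of lipoprotein lipase and genes of lipid uptake and droplets had 3 of 22 called, all lower, with a median of 0.020. Cd36, the fatty acid and oxidized lipoprotein receptor, fell by 0.46 (SE 0.0513, adjusted p = 0.000402), with ozone mice at most -0.31 and filtered-air mice at least -0.076. Pnpla2, the triglyceride lipase ATGL, fell by 0.25 (SE 0.0401, adjusted p = 0.00355), and G0s2, its inhibitor, fell by 0.26 (SE 0.0645, adjusted p = 0.0320), a call lost in 8 of 12 fits without a mouse (adjusted p 0.0517 to 0.0781). Fabp4, Plin2 and Pparg, at -0.15, -0.047 and -0.011, were not called, and neither was Hilpda, at 0.25 (adjusted p = 0.118 in limma). In this list 12 genes had a positive and 10 a negative difference. With the RNA integrity number as a covariate Hilpda was called higher (0.28, adjusted p = 0.0284 in limma). Without the batch term Lmf1 was called higher (0.12, adjusted p = 0.0446 in limma). The MiT/TFE factors had 0 of 4 called by limma, with differences from -0.11 for Tfe3 to 0.14 for Tfec.

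Of 11 tetraspanins and partners related to Cd9, 3 were called higher and 2 lower, and the 2 directions came from different genes. Tspan32 rose by 0.57 (SE 0.0680, adjusted p = 0.000527) with the ozone mice between 0.47 and 0.63 and the filtered-air mice at most 0.17. Cd81, which forms complexes with CD9, rose by 0.30 (SE 0.0469, adjusted p = 0.00291), and Igsf8, a partner of both, by 0.17 (adjusted p = 0.0258), a call lost without filtered-air mouse 1, 4 or 5 or ozone mouse 2 or 5. Cd151, which binds laminin-binding integrins, fell by 0.32 (SE 0.0362, adjusted p = 0.000428) without overlap, and Cd37 fell by 0.22 (adjusted p = 0.0137). Among 5 galectins and ligands, Lgals3bp, a ligand of galectin-3, rose by 0.17 (SE 0.0379, adjusted p = 0.0177), while Lgals3 itself was lower in the mean and Lgals9 was at -0.17 (adjusted p = 0.0727).

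Part of these calls moved with the scaling. After quantile normalization of the mice, 8 of the 20 pathway genes called were still called: Itgb5, Ctsd, Pld3, Cd36, Pnpla2, Tspan32, Cd81 and Cd151. Of the other 12, Lat2, Itga4, Cd63, Ctsb, Emp1, Pltp, Apoc1, G0s2, Igsf8, Cd37 and Lgals3bp had the same direction with adjusted p-values of 0.0894 to 0.192 in limma. Their differences were somewhat smaller, at 0.53 for Cd63, -0.28 for Itga4 and -0.36 for Apoc1. With a trend in the prior variance, Cd63, Emp1 and G0s2 were not called (adjusted p 0.0530 to 0.0623) at the same differences.

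**Figure D4:**
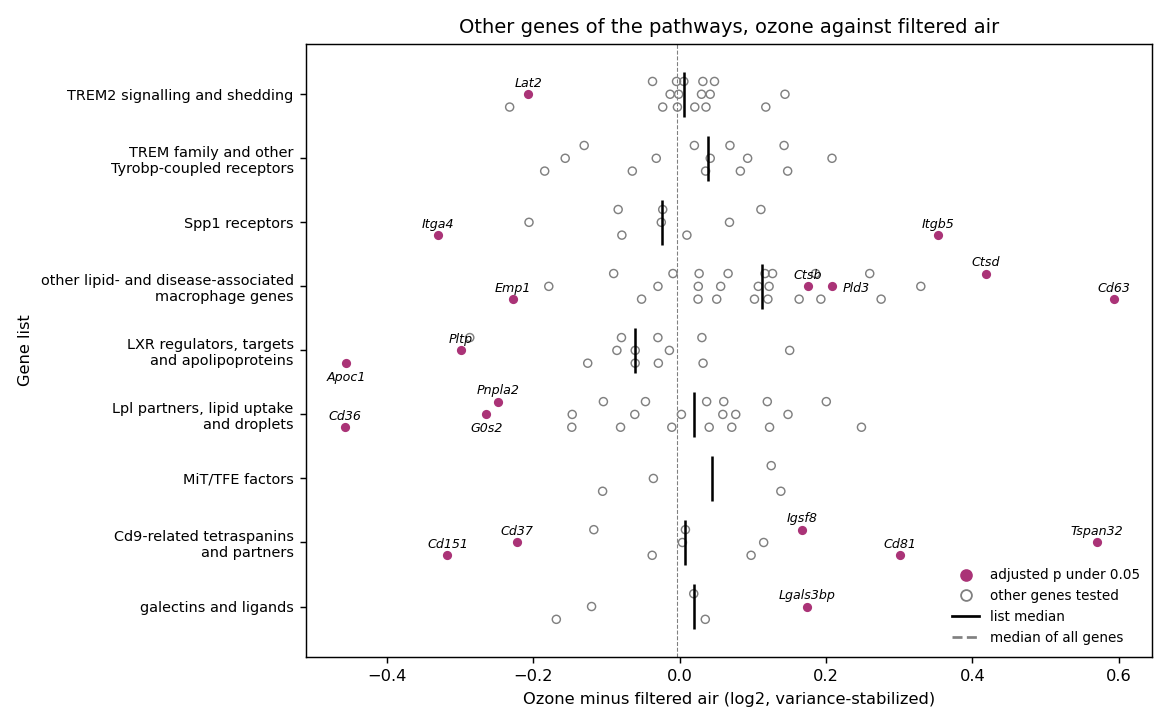
Ozone minus filtered-air difference (log2) of the tested genes in the 9 pathway lists, without 1 that is not reported here; filled points have an adjusted p under 0.05 in limma. Most genes lie near 0, the median is 0.11 in the list of lipid-associated macrophage genes and -0.061 in the LXR list, and Cd63, Tspan32, Ctsd and Itgb5 stand high while Cd36 and Apoc1 stand low.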

How the data were processed

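RNA of flow-sorted alveolar macrophages was measured in 12 mice. The authors deposited log2 values, variance-stabilized and batch-corrected per the name of the deposited table, for 55291 gene symbols, with 0 columns unmatched to a mouse. Per the submitters' processing notes, cutadapt, STAR 2.7.7a, Salmon 1.5.2, DESeq2 1.26.0, R 3.6.0 and limma 3.42.2 were used with the mm10 build. Their roles and the annotation are not given in the sources used here. Read totals are unknown, so no counting error is given.

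Genes were kept where at least 6 of 12 mice lay above the lowest value shared by mice (tolerance 1e-06), which left 19633. Ozone was compared with filtered air in limma 3.58.1 (R 4.3.3), with flow-sort batch as covariate, no trend in the prior variance, Benjamini-Hochberg adjustment over all genes kept and a threshold of 0.05. The batch term accounts for the correction already applied to the values. The fit and the correlations were tested on simulated data with independent noise for each gene. This checks the code and not the rate of false calls in these mice. The members and gene lists were chosen with earlier results of these data known. In each list the called genes with the 2 largest rises and 2 largest falls were named by rule. Pld3, Ctsb, Pltp, Pnpla2 and Igsf8, genes given as not called, and the pairs Trem2 with Spp1, Trem2 with Tyrobp and Spp1 with Fabp5 were named after their values were seen. Pairs were the 3 highest and 3 lowest by mean r, and the genes most alike the 5 nearest. Of the genes the rule named, 1 is counted but not reported here. Same-numbered mice are different animals. Alternatives were another filter, a prior trend, robust estimation, quantile normalization, median centring, no batch term, RNA integrity as covariate, each batch alone, a replicate block and leaving out each mouse. Promoters were read from RefSeq (GRCm38.p6) and gene positions from GENCODE M21.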

Additional observations from a re-analysis of the deposited data

How the results depend on the processing

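With 834 genes called in all (473 higher, 361 lower), quantile normalization gave 171 (106 and 65), the first sort batch alone 90 (71 and 19) and the second alone 0 (0 and 0), each batch with fewer mice. A prior variance trend gave 611 genes in all and 221 lower. Leaving out 1 mouse gave 538 to 751 genes, 326 to 456 higher and 212 to 312 lower. Members called, 2 in all, were 1 with the trend (Trem2) and 1 in the first batch alone (Spp1), 0 in the second, and 3 with a replicate block (Apoe added). The members had been picked from this contrast, so these member counts are a description and no support is read from them. The 20 pathway genes called were 8 after quantile normalization, 5 in the first batch and 0 in the second, and 15 to 22 without a mouse. The median r of the members after filtered air was -0.0722 to 0.455 without a mouse, below 0 only without filtered-air mouse 4. The cause of these shifts was not tested. Of 216 member differences under alternatives, 214 moved by less than 1 SD, and the other 2 were Apoe in each batch. Of 480 recomputed values of the 20 called pathway genes, 389 kept direction and call, 91 lost the call and 0 reversed. A replicate block in place of the batch term gave 1219 genes (667 higher, 552 lower), 820 of them among the 834, and the block together with the batch term, added after seeing the data, gave 853, with 686 shared. The 5 called genes of the lipid-associated list became 10 with the block, with Cd68, Ctsk, Mmp12, Mmp14 and Fnip2 added (adjusted p 0.00775 to 0.0377), and 9 with block and batch term, without Cd68 (adjusted p of the added genes 0.0159 to 0.0436 in limma). Sirpb1c was called under both, Nr1h3 with the block alone, and Igsf8 was not called with block and batch term (adjusted p = 0.0612 in limma). The shared numbers were not treated as pairs, since the labels give different animals and not every pair correlated above 0.1: deviations of same-numbered mice correlated at -0.0026 to 0.28, above 0.1 in 4 of 6, so a partial pairing is not excluded, and in 2 of 6 each mouse correlated best with its own number. None of 58 combinations of gene and group had a mouse standing apart by Dixon's ratio. Read totals are unknown, so what depth limits could not be measured.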
